A study of Mus musculus with 18 samples.

Results

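The 10 genes described here act on the mRNA that an oocyte stores and later removes, and each was found by its gene symbol in the deposited expression table. They are *Zar1*, *Ybx2*, *Lsm14b*, *Cpeb1*, *Eif4e1b*, *Pabpc1l*, *Btg4*, *Cnot6l*, *Cnot7* and *Zfp36l2*, and all 10 were present among the 28252 genes of the TPM table (a level corrected for gene length and library size) and, by the same Ensembl identifier, among the 53715 genes of the count table. Their levels were followed in 18 libraries of C57Bl/6j x CBA/J mouse oocytes, 3 in each of 6 groups: oocytes of the primordial stage, of the primary stage and at metaphase II (MII), each grown *in vivo* or *in vitro*. In the *in vivo* group, oocytes from primordial and primary follicles were cut by laser capture microdissection (LCM) from fixed, paraffin-embedded ovaries of mice aged 14 days. In the *in vitro* group, they were cut in the same way from ovaries removed at 7 days of age and cultured for 7 days, so that both groups had the same nominal age. The culture medium was α-MEM with fetal bovine serum, insulin, transferrin, selenium and recombinant follicle-stimulating hormone (FSH). The *in vitro* MII oocytes came from such cultured ovaries, whose secondary follicles were grown in alginate for 12 more days, again with FSH, and then ovulated with human chorionic gonadotrophin (hCG). The *in vivo* MII oocytes came from adult females superovulated with human menopausal gonadotrophin and hCG. Each MII library held 10 oocytes, and the RNA of several microdissection caps was joined for each LCM stage. The labels name no transgene or deletion. The labels do not say whether the replicates came from separate animals, so p-values measure the spread between these libraries, which may be technical.

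A growing oocyte transcribes far more mRNA than it translates and keeps the surplus in a stored, deadenylated form. During meiotic maturation, selected mRNAs gain a longer poly(A) tail through CPE-bound factors and are translated, and others lose their tail to the CCR4-NOT deadenylase complex and are degraded. The genes below belong to 3 steps of that programme, which are storage (*Zar1*, *Ybx2*, *Lsm14b*), control of the poly(A) tail and the cap during translation (*Cpeb1*, *Pabpc1l*, *Eif4e1b*) and deadenylation (*Btg4*, *Cnot6l*, *Cnot7*, *Zfp36l2*).

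Depth was 15149564 to 29205503 counts for LCM and 7334817 to 9978830 counts for MII oocytes, and 3 counts, taken as the floor of detection, were 0.103 to 0.409 counts per 1000000 (CPM). RNA extraction, amplification and library kits differed between LCM and MII oocytes, so stage and preparation cannot be told apart between them, and no test compared them. The 12 oocyte markers summed to 324 to 1944 TPM in the LCM libraries and 10360 to 20923 TPM in the MII libraries. The 12 granulosa markers summed to 22.7 to 2434 TPM in the LCM libraries and to 30.25 to 76.5 TPM in the MII libraries, where *Cyp19a1* held 17.5 to 64.7 TPM of it. Primordial *in vitro* library 2 held 1944 TPM of the oocyte markers, against 324 to 829 TPM in the other primordial libraries. Among the primordial libraries, it had the highest level of each of the 12 oocyte markers except *Sohlh1* and *Ddx4*. *Gdf9*, made by growing oocytes, was at 408 TPM in it, beside 0.382 to 9.67 TPM in the other 5 primordial libraries and 68.8 to 148 TPM in the 6 primary libraries. *Zp3* was at 187 TPM in it, beside 4.61 to 19.4 TPM in the other 5 primordial and 48.1 to 88.8 TPM in the 6 primary libraries. *Ddx4* was at 68.1 TPM in it, beside 274 to 421 TPM in primordial *in vivo* and 5.06 and 315 TPM in the other primordial *in vitro* libraries. *Sohlh1* was at 6.56 TPM in it, beside 4.51 to 7.22 TPM in primordial *in vivo* and 0 to 8.64 TPM in primary libraries. The other primordial *in vitro* libraries had 0 and 3.495 TPM of *Sohlh1*. *Figla* was at 5.20 TPM in it, beside 2.20 to 4.87 TPM in primordial *in vivo* and 0.158 to 2.60 TPM in primary libraries. The other primordial *in vitro* libraries had 2.03 and 2.23 TPM of *Figla*. Whether the label of primordial *in vitro* library 2 is right was not tested. Primary *in vivo* library 2 held 29938 TPM of theca and stroma markers, against 453 and 645 TPM in the other two libraries of its group, and the blood and endothelium markers summed to 1226 to 7504 TPM in the primary *in vivo* libraries and 0.682 to 174 TPM in the primary *in vitro* libraries. In bulk libraries, fewer cells of a type and less RNA per cell cannot be told apart. Several results are given with and without these libraries.

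*Zar1* (ENSMUSG00000063935, GRCm38 chromosome 5, 72576806 to 72581254, minus strand) encodes a zinc-finger protein that binds mRNA in the oocyte and keeps it stored. Its level in oocytes from primordial follicles was 0.168, 0 and 0 TPM in the 3 *in vivo* libraries and 0, 95.5 and 3.05 TPM in the 3 *in vitro* libraries. In oocytes from primary follicles, it was 3.53, 6.96 and 70.6 TPM *in vivo* and 40.1, 25.15 and 29.65 TPM *in vitro*. *Zar1* was thus above the floor in 3 of 6 primordial and 6 of 6 primary libraries. In MII oocytes, it was 838, 355 and 404 TPM *in vivo* and 729, 113 and 295 TPM *in vitro*, so all 6 MII libraries lay above every LCM library. By median, the groups ran from MII *in vivo* through MII *in vitro*, primary *in vitro*, primary *in vivo* and primordial *in vitro* to primordial *in vivo*, and only the step between MII *in vitro* and primary *in vitro* was free of overlap between neighbours. Runs of 50 bases are shared with the predicted genes *Gm42668* (20.8% of the runs in *Zar1* transcripts) and *Gm15847* (8.87%), whose counts did not exceed 15 and 19 in a library.

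*Ybx2* (ENSMUSG00000018554, chromosome 11, 69935796 to 69941605, plus strand) encodes MSY2, a germ-cell Y-box protein that coats stored mRNA. It was at 583, 2257 and 7298 TPM in primordial *in vivo* libraries and at 402, 1719 and 255 TPM *in vitro*. At the primary stage, the *in vivo* libraries were at 14890, 1866 and 5425 TPM and the *in vitro* libraries at 764, 778 and 687 TPM. MII oocytes had 4.93, 46.8 and 28.85 TPM *in vivo* and 8.29, 11.3 and 11.2 TPM *in vitro*, below every LCM library. By median TPM, *Ybx2* ranked 14th of all genes in the primary *in vivo* group and 3638th in the MII *in vivo* group. Neighbouring groups overlapped in the order primary *in vivo*, primordial *in vivo*, primary *in vitro*, primordial *in vitro*, and both MII groups overlapped each other below them.

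*Lsm14b* (ENSMUSG00000039108, chromosome 2, 180024987 to 180035465, plus strand) encodes an RNA-binding protein of oocyte ribonucleoprotein particles. Its level spanned 182 to 1682 TPM over the 12 LCM libraries, with 854, 410 and 433 TPM in primordial *in vivo*, 842, 1031 and 365 TPM in primordial *in vitro*, 1553, 182 and 1682 TPM in primary *in vivo* and 904, 1062 and 282 TPM in primary *in vitro* libraries. The MII libraries had 114, 551 and 462 TPM *in vivo* and 206, 153 and 159 TPM *in vitro*. The order of medians was primary *in vivo*, primary *in vitro*, primordial *in vitro*, MII *in vivo*, primordial *in vivo* and MII *in vitro*, and only the last step had no overlap between neighbours. The lowest of the 12 LCM values was that of primary *in vivo* library 2, the library rich in stroma markers, and the MII range reached into the LCM range. It was the only storage gene of the 3 without a gap between MII and LCM libraries.

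*Cpeb1* (ENSMUSG00000025586, chromosome 7, 81347026 to 81455465, minus strand) encodes the protein that binds the cytoplasmic polyadenylation element (CPE). Its level in primordial libraries was 820.5, 274 and 701.5 TPM *in vivo* and 258, 319 and 397 TPM *in vitro*, and in primary libraries 1395, 222 and 1363 TPM *in vivo* and 423, 225 and 225 TPM *in vitro*. In MII oocytes, it was 87.1, 75.2 and 75.6 TPM *in vivo* and 71.7, 140 and 112 TPM *in vitro*, all below the LCM libraries. All neighbouring LCM groups overlapped, as did the 2 MII groups.

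The CPE itself was sought in the genes' own 3′ UTRs, because a CPE near the end of an mRNA is what CPEB1 binds. The letters TTTTAT or TTTTAAT, on the transcript strand, occurred in the last 150 bases of the 3′ UTR in 1 GENCODE transcript each of *Btg4* (2 matches), *Cnot7* (3) and *Ybx2* (1), so in 3 of 10 genes, beside 23.5% of 18512 genes with a 3′ UTR of that length or longer. The 3′ UTR of *Zar1* was 146 bases long and was searched whole. The match nearest to the 3′ end is shown for each of the 3 genes, with capitals for the CPE and, in *Cnot7*, also for the polyadenylation signal AATAAA.
Btg4: atccctTTTTATgtctttttaaaagtttga
Cnot7: ggtacaTTTTATatcAATAAAaatac
Ybx2: aagccaTTTTATgaactgtcatgtgccacc
The sites lay at chr9:51119803-51119832 (plus strand), chr8:40493036-40493061 (minus strand) and chr11:69941538-69941567 (plus strand) of GRCm38, and the CPE ended 61, 14 and 56 bases before the end of the transcript. Of the 10 transcripts, only those of *Btg4* and *Ybx2* had no AATAAA or ATTAAA in their last 40 bases, where 73.6% of the 18512 genes had one. The distances rest on the annotated ends, which were not tested. A match is a stretch of letters and was not tested for binding. Farther from the 3′ end, the 3′ UTRs of *Cnot6l* (16 matches), *Cpeb1* (4), *Zfp36l2* (4) and *Lsm14b* (2) also held the letters. *Btg4* and *Cnot7* had higher and *Ybx2* lower medians in both MII groups than in any LCM group. Whether the letters bear on these levels was not tested.

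*Pabpc1l* (ENSMUSG00000054582, chromosome 2, 164025450 to 164050538, plus strand) encodes the embryonic poly(A)-binding protein, and *Eif4e1b* (ENSMUSG00000074895, chromosome 13, 54783998 to 54788459, plus strand) an oocyte form of the cap-binding protein eIF4E. Both were above the floor in 1 of 6 primordial libraries and in 5 of 6 primary libraries. *Pabpc1l* was at 0 TPM in all 3 primordial *in vivo* libraries and at 0, 1.25 and 0 TPM in the primordial *in vitro* libraries. In primary libraries, it was at 0, 7.34 and 179 TPM *in vivo* and at 63.2, 0.388 and 43.1 TPM *in vitro*. *Eif4e1b* was at 0, 0.0629 and 0 TPM in primordial *in vivo* and at 0, 152.5 and 0.0689 TPM in primordial *in vitro* libraries. It was at 0, 2.25 and 291 TPM in primary *in vivo* and at 105, 3.93 and 117 TPM in primary *in vitro* libraries. The only primordial library with more than the floor of either gene was *in vitro* library 2, the one with high *Gdf9*.

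In MII oocytes, *Pabpc1l* was at 3.31, 17.5 and 4.77 TPM *in vivo* and at 5.39, 19.3 and 16.7 TPM *in vitro*. *Eif4e1b* was at 48.05, 156 and 133 TPM *in vivo* and at 53.6, 95.2 and 55.5 TPM *in vitro*. Both genes overlapped between MII and primary groups. The only step in the order of medians without overlap was that from MII *in vivo* to primordial *in vitro* for *Pabpc1l*. *Eif4e1b* shares 4.27% of its 50-base runs with the predicted gene *Gm5705*, which had at most 20 counts in a library.

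**Figure D1:**
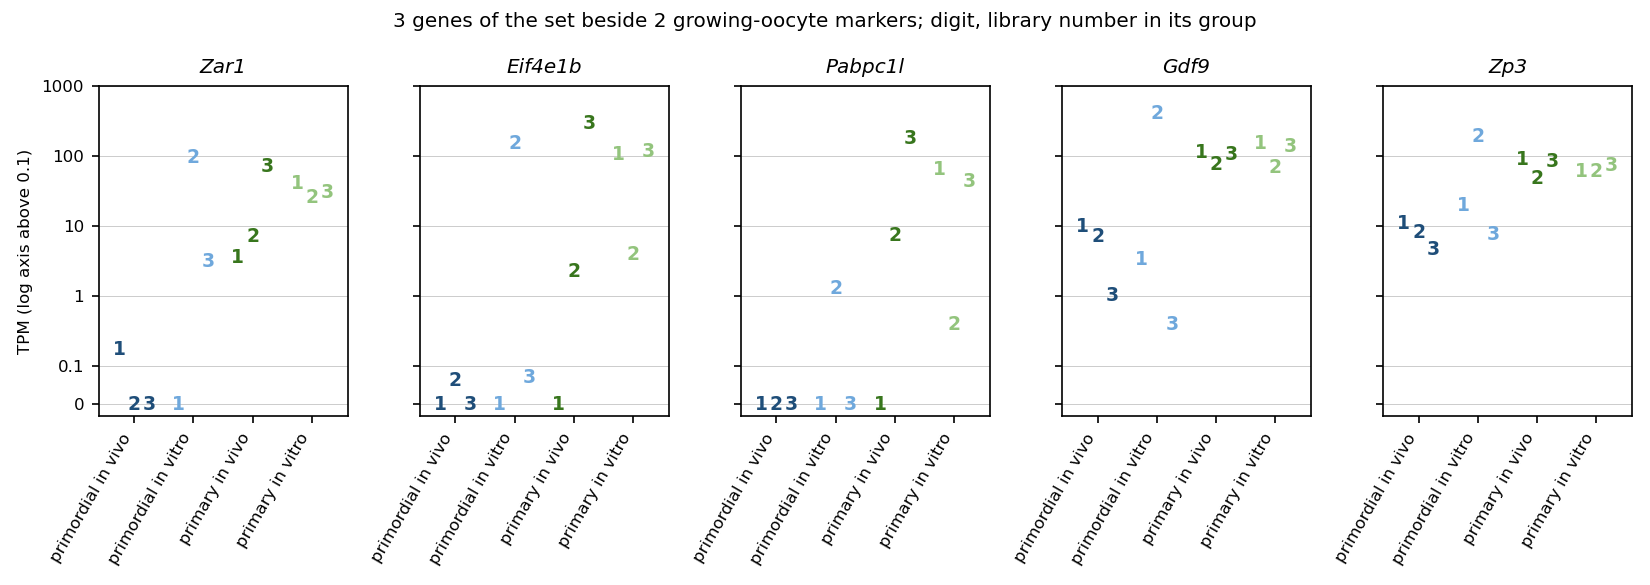
Levels in TPM (log axis) of *Zar1*, *Eif4e1b*, *Pabpc1l* and the growing-oocyte markers *Gdf9* and *Zp3* in the 12 LCM libraries, where each digit is the library number within its group. Primordial *in vitro* library 2 stands above the other primordial libraries for all 5 genes, for example at 152.5 TPM of *Eif4e1b* and 408 TPM of *Gdf9*.

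*Pabpc1l* and *Eif4e1b* were at or under the floor in all but 1 primordial library and *Zar1* in 3 of 6, and the promoters of *Zar1* and *Pabpc1l* are shown together with that of *Btg4*, which was high in MII libraries. RefSeq promoter windows (GRCm38.p6, from 250 bases before the transcript start to 50 after it) were at hand for 7 of the 10 genes, in 10 entries. *Eif4e1b*, *Cnot7* and *Zfp36l2* had none. Capitals mark each CANNTG, the E-box letters that read the same on both strands as a pattern and are recognised by basic helix-loop-helix factors.
Zar1: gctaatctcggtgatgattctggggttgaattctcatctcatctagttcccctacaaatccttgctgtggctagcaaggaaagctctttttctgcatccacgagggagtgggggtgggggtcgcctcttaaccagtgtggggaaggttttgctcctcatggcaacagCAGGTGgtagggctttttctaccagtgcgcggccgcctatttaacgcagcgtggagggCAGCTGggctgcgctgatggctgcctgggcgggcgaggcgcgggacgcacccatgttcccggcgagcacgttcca
Pabpc1l: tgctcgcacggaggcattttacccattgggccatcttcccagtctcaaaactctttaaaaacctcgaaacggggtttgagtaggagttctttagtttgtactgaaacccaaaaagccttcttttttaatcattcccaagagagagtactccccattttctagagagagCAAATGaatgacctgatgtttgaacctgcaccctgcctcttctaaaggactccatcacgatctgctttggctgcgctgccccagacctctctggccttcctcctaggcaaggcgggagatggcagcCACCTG
Btg4: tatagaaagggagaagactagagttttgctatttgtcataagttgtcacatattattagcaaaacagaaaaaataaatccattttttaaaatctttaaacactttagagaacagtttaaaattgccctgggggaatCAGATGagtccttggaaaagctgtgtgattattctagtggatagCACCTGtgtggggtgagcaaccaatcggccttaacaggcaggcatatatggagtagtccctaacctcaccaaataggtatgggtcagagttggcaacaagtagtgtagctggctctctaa
These windows are chr5:72581035-72581334 (minus strand), chr2:164024974-164025273 (plus strand) and chr9:51115751-51116050 (plus strand). Their RefSeq starts differ from the GENCODE gene starts given here. The *Zar1* window spans the GENCODE start at 72581254, with both E-boxes inside the gene. The *Pabpc1l* window ends before the GENCODE start at 164025450, and the *Btg4* window lies within the gene that starts at 51060901. Each held 2 E-boxes, as did the window of *Cpeb1*, which was above the floor in every primordial library. The 3 windows of *Cnot6l* held 0, 2 and 1, that of *Lsm14b* 1 and the 2 of *Ybx2* 1 and 0. At least 1 E-box was in 72.3% of 32851 promoter windows, and a share with 2 was not counted. Whether E-boxes bear on the levels was not tested. The letters TAATTG and TAATTA, to which the oocyte factor NOBOX can bind, were searched on both strands. They were in none of the 10 entries, against 8% and 5.29% of all windows.

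*Btg4* (ENSMUSG00000032056, chromosome 9, 51060901 to 51119875, plus strand) encodes the adaptor that brings the CCR4-NOT deadenylase to maternal mRNA during maturation. Its level in primordial libraries was 1.94, 0.776 and 0.478 TPM *in vivo* and 0, 1.19 and 0.486 TPM *in vitro*, and in primary libraries 0, 0.161 and 1.76 TPM *in vivo* and 2.10, 0.104 and 1.80 TPM *in vitro*. In MII oocytes, it was 9456, 4128 and 5753 TPM *in vivo* and 5558, 6880 and 7225 TPM *in vitro*. *Btg4* ranked 19th by median TPM in the MII *in vivo* group and 14th in the MII *in vitro* group. The lowest MII library was thus at 4128 TPM and the highest LCM library at 2.10 TPM, and the LCM groups all overlapped their neighbours. The locus overlaps *Layn*, *4833427G06Rik*, *Mir34b* and *Mir34c* on the opposite strand.

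*Cnot6l* (ENSMUSG00000034724, chromosome 5, 96070333 to 96164171, minus strand) and *Cnot7* (ENSMUSG00000031601, chromosome 8, 40492540 to 40515847, minus strand) each encode a catalytic subunit of the complex. *Cnot6l* varied between 1.10 and 618 TPM in LCM libraries, with 280, 421 and 1.10 TPM in primordial *in vivo*, 42.6, 275 and 81.9 TPM in primordial *in vitro*, 136, 38.8 and 483 TPM in primary *in vivo* and 618, 58.75 and 349 TPM in primary *in vitro* libraries. It was at 39.7, 73.6 and 76.35 TPM in MII *in vivo* and at 58.55, 71.6 and 99.97 TPM in MII *in vitro* libraries, and each group overlapped its neighbour in the order of medians.

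*Cnot7* was at 17.97, 147.5 and 106 TPM in primordial *in vivo*, 52.0, 13.9 and 54.8 TPM in primordial *in vitro*, 6.18, 70.1 and 50.6 TPM in primary *in vivo* and 131, 102 and 77.1 TPM in primary *in vitro* libraries. It was at 678, 120 and 222 TPM in MII *in vivo* and at 603.5, 743 and 691.5 TPM in MII *in vitro* libraries. The *in vitro* MII libraries were close to each other, and MII *in vivo* library 1 lay among them. In the order of medians, from MII *in vitro* through MII *in vivo*, primordial *in vivo*, primary *in vitro* and primordial *in vitro* to primary *in vivo*, only the step from primary *in vitro* to primordial *in vitro* had no overlap. The ratio of *Cnot6l* to *Cnot7* TPM ranged from 0.0104 to 22 in LCM libraries and from 0.0586 to 0.615 in MII libraries, so *Cnot7* was higher than *Cnot6l* in all 6 MII libraries. The *Cnot7* locus overlaps *Zdhhc2* and *Vps37a* on the opposite strand.

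*Zfp36l2* (ENSMUSG00000045817, chromosome 17, 84183931 to 84187947, minus strand) encodes a protein that binds AU-rich elements and recruits the deadenylase. Its level was 5.28, 400 and 13.6 TPM in primordial *in vivo*, 0.901, 25.4 and 106 TPM in primordial *in vitro*, 33.6, 16.0 and 10.7 TPM in primary *in vivo* and 40.35, 88.9 and 61.7 TPM in primary *in vitro* libraries. In MII oocytes, it was 0.0797, 0.950 and 1.00 TPM *in vivo* and 1.07, 1.21 and 0.0869 TPM *in vitro*, above the floor in 4 of 6 libraries. All LCM medians (13.6 to 61.7 TPM) lay above both MII medians, and primordial *in vitro* library 1 was within the MII range. The locus overlaps an antisense transcript, and *Cpeb1* overlaps the pseudogene *Rpl7a-ps9*. The sources used here do not state whether strand was used in counting, so reads of such overlapping pairs cannot be told apart.

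**Figure D2:**
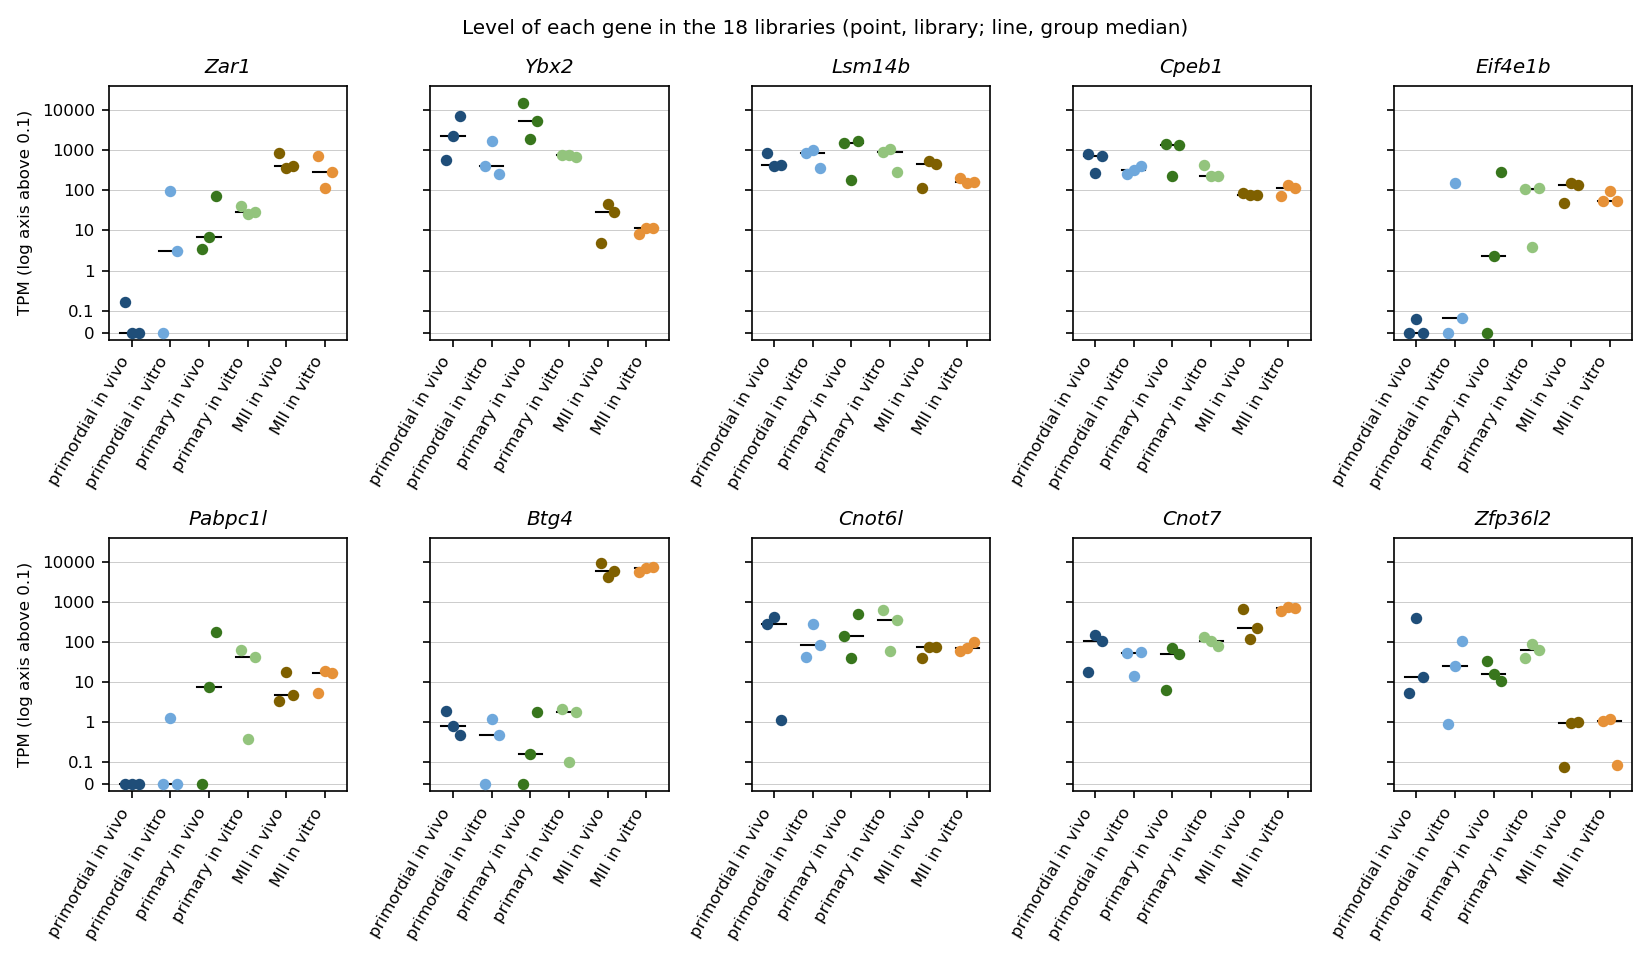
TPM of each of the 10 genes (one panel each, log axis above 0.1 TPM) in the 18 libraries by group, with a line at the group median. All MII points lie above all LCM points for *Zar1* and *Btg4* and below them for *Ybx2* and *Cpeb1*.

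Set side by side without a test, 2 of the 10 genes (*Zar1*, *Btg4*) had every MII library above every LCM library, and 2 (*Ybx2*, *Cpeb1*) had every MII library below. Over the 25701 genes with a TPM above 0 in a library, these shares were 16.1% and 1.37%. The make-up of the 10 genes' summed TPM also differed. The deadenylation genes held 0.976% to 26.1% of the sum in LCM libraries and 78.2% to 93.5% in MII libraries, of which *Btg4* alone held 74.7% to 83.9%. *Ybx2* held 20.2% to 85.3% of the sum in LCM libraries and 0.0437% to 0.847% in MII libraries. The preparation differed between these oocytes as described above, and its share in the difference cannot be told apart from that of the stage.

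**Figure D3:**
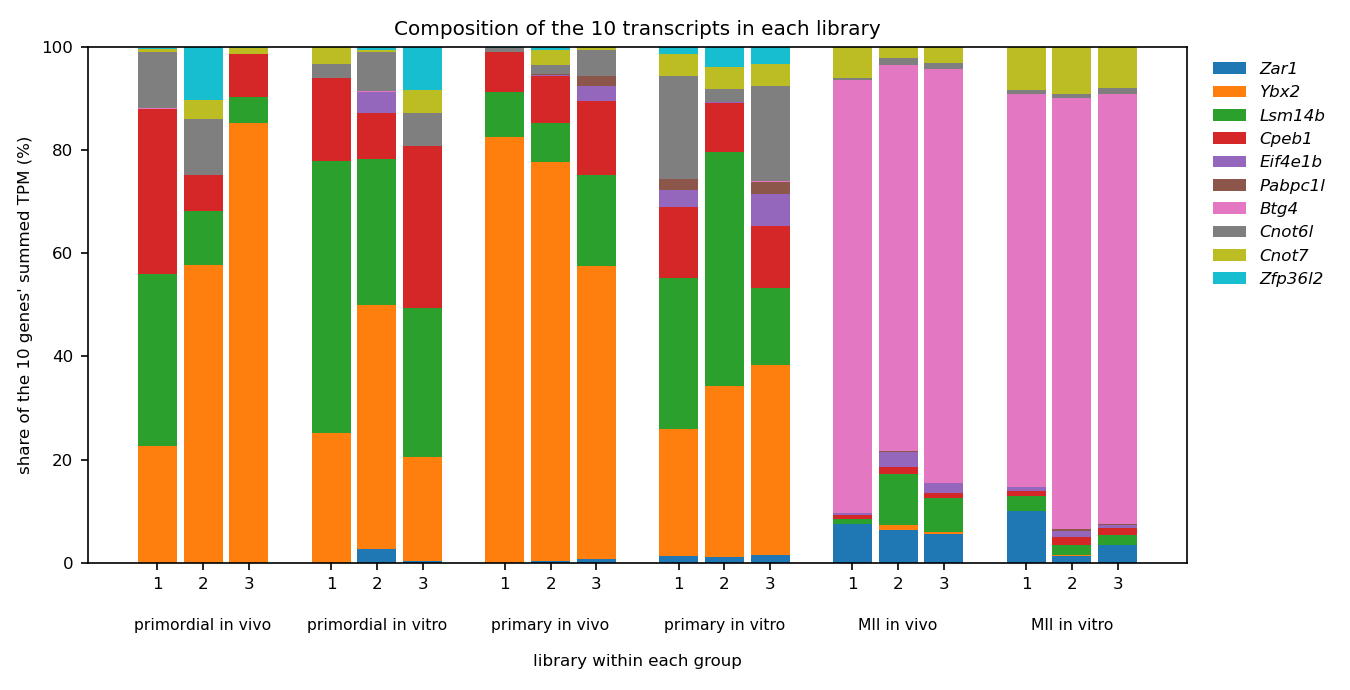
Share (%) of each gene in the summed TPM of the 10 genes, one stacked bar per library. *Ybx2*, *Lsm14b* and *Cpeb1* fill most of the LCM bars, and *Btg4* fills 74.7% to 83.9% of the MII bars.

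The primordial-to-primary comparison asked how these mRNAs differed around follicle activation. In the *in vivo* group, *Pabpc1l*, *Eif4e1b* and *Zar1* had the largest log2 fold changes of the 10 genes, and none of the 10 passed the test. *Pabpc1l* averaged 0 CPM in primordial and 47.2 ± 76.7 CPM (SD, n = 3) in primary libraries, a primary mean 357-fold the floor. *Eif4e1b* averaged 0.0124 ± 0.0214 and 61.4 ± 105 CPM (SD, n = 3), a primary mean 464-fold the floor. Their log2 fold changes were 13.09 ± 4.87 (SE) and 11.70 ± 4.51 (SE), both with a Benjamini-Hochberg adjusted p = 0.38 (edgeR, quasi-likelihood). In both genes the highest of the 3 primary *in vivo* libraries, library 3, held most of the level and library 1 had 0 TPM, so the groups overlapped. Without primary *in vivo* library 3, the values were 9.11 and 5.35.

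*Zar1* had a log2 fold change of 8.73 ± 4.22 (SE; adjusted p = 0.424, edgeR), from 0.0571 ± 0.099 to 26.7 ± 35.8 CPM (SD, n = 3). It was the 1 gene of the 10 whose *in vivo* primordial and primary libraries did not overlap, in a comparison where 6.39% of 15317 genes did not overlap. The other genes had values from -2.39 ± 2.77 (SE) for *Zfp36l2* to 1.18 ± 1.17 (SE) for *Ybx2*, which was at -0.21 without primary *in vivo* library 1 and at 2.82 without primordial *in vivo* library 3. Of the 10 genes, 7 had a positive and 3 a negative value, with a median of 0.96 beside 0.00 over all genes. An unadjusted p under 0.05 was reached by 3 of the 10 and by 11.2% of all genes, and 0 of the 10 and 0.0522% of all genes were called (adjusted p under 0.05 and at least a 2-fold change). DESeq2 called *Pabpc1l* and *Eif4e1b* and gave *Zar1* no adjusted p, and limma-voom and limma on log2 TPM called 0.

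In the *in vitro* group, *Zar1* and *Eif4e1b* had similar means at both stages, and primordial library 2 held nearly all of their primordial level. The log2 fold change was -0.33 ± 3.02 (SE) for *Zar1*, 0.17 ± 2.90 (SE) for *Eif4e1b* and 5.96 ± 3.80 (SE) for *Pabpc1l*, which averaged 0.357 ± 0.619 CPM in primordial and 22.8 ± 20 CPM in primary libraries (SD, n = 3). Without primordial *in vitro* library 2, the values were 4.10 for *Zar1*, 10.35 for *Eif4e1b* and 12.02 for *Pabpc1l*, with adjusted p-values of 0.735, 0.574 and 0.574 in edgeR's quasi-likelihood test. The sign for *Zar1* also turned with library size alone as the scaling (0.07). *Cnot7* was higher in all 3 primary than in all 3 primordial libraries (1.07 ± 2.36 (SE), adjusted p = 1, edgeR), where 11.2% of all genes did not overlap. None of the 10 genes was called by edgeR, DESeq2 or limma, and the smallest adjusted p was 0.546. Called genes were 0% of 15317, and 0 of the 10 had an unadjusted p under 0.05 beside 10.9% of all genes. The median of the 10 was 0.27 beside 0.44 over all genes, the reverse of the order *in vivo*.

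An interaction term tested whether growth *in vivo* or *in vitro* altered the stage difference itself and called 0.104% of all genes and none of the 10. *Eif4e1b* had the smallest p, with an interaction of -11.52 ± 5.01 (SE, log2 scale; adjusted p = 0.332, edgeR), the only one of the 10 at an unadjusted p under 0.05, which 11.5% of all genes reached. The value was -1.34 without primordial *in vitro* library 2. DESeq2 called 1 gene here, *Pabpc1l*. Pooled over both groups, the primary minus primordial difference called 0% of all genes and 0 of the 10 in edgeR, with 12.4% of all genes and 2 of the 10 at an unadjusted p under 0.05. *Pabpc1l* stood first at 9.53 ± 3.06 (SE; adjusted p = 0.16), at 12.54 without primordial *in vitro* library 2 and at 7.54 without primary *in vivo* library 3, and DESeq2 and limma-voom called it (adjusted p = 1.08e-09 and 0.0431).

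**Figure D4:**
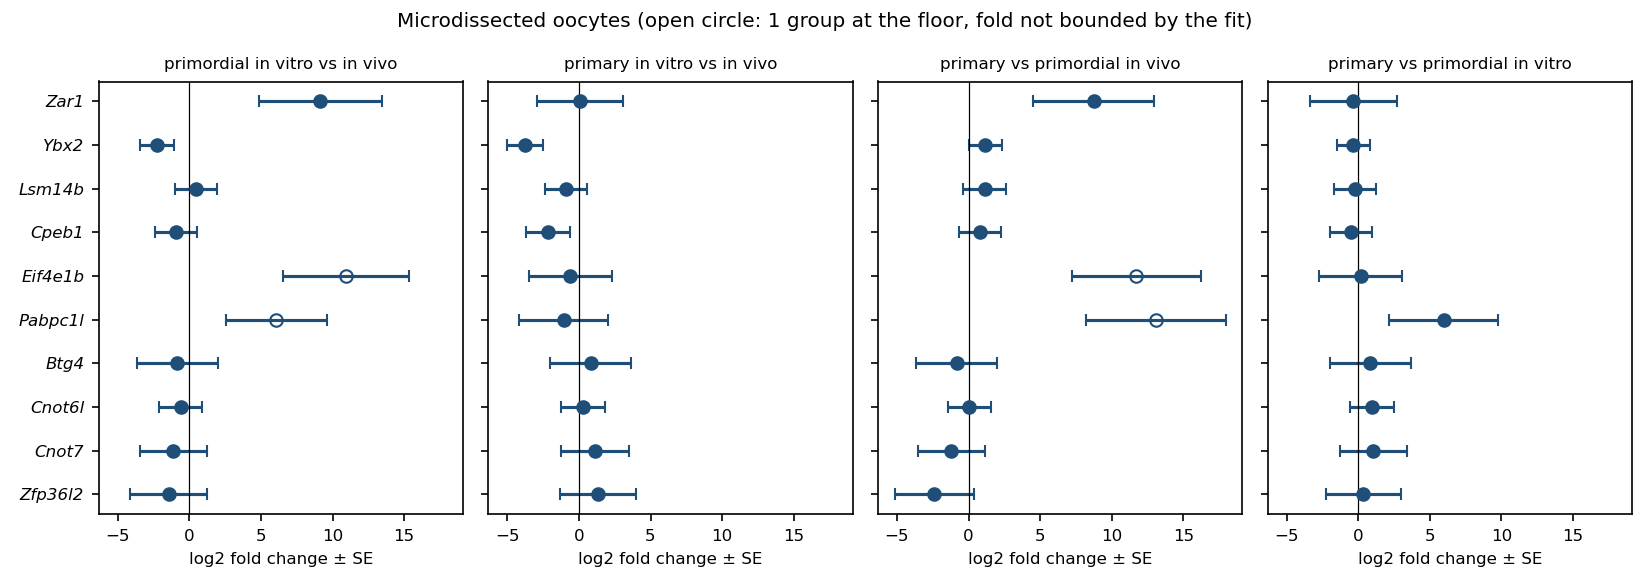
log2 fold changes ± SE of the 10 genes in the 4 comparisons of LCM groups, with open circles where a group had no library above the floor. Most bars cross 0, and the largest value is that of *Pabpc1l* in primary against primordial *in vivo* oocytes (13.09).

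The culture comparison asked how *in vitro* growth of the ovary differed from growth *in vivo*. In oocytes from primordial follicles, *Zar1*, *Eif4e1b* and *Pabpc1l* had higher means *in vitro*, mainly through library 2, and *Ybx2* had a lower mean. *Eif4e1b* averaged 0.0124 ± 0.0214 CPM *in vivo* and 36.1 ± 62.5 CPM *in vitro* (SD, n = 3), with a log2 fold change of 10.93 ± 4.39 (SE; adjusted p = 0.359, edgeR). Its *in vitro* mean was 273-fold the floor, and library 2 alone was above the floor. The values of *Zar1* and *Pabpc1l* were 9.16 ± 4.30 and 6.08 ± 3.54 (SE; adjusted p = 0.387 and 0.461, edgeR). *Pabpc1l* had 29 counts in *in vitro* library 2 and 0 in every other primordial library. Its *in vitro* mean was 2.71-fold the floor through that library alone, which sets no least fold between the groups. Without *in vitro* library 2, the values were 0.75 for *Eif4e1b*, 4.72 for *Zar1* and 0.00 for *Pabpc1l*. *In vitro* library 3 of *Zar1*, with 68 counts, also lay above the 4, 0 and 0 counts *in vivo*. *Ybx2* averaged 2243 ± 2669 CPM *in vivo* and 476 ± 475 CPM *in vitro* (SD, n = 3), a value of -2.24 ± 1.21 (SE; adjusted p = 0.442, edgeR) with overlapping libraries. It was -3.46 without *in vitro* library 2 and -0.59 without *in vivo* library 3, the highest of its group.

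The remaining 6 genes lay between -1.43 ± 2.69 (SE) for *Zfp36l2* and 0.46 ± 1.47 (SE) for *Lsm14b*. In edgeR, 0 of the 10 genes and 0.0326% of 15317 genes were called, and 2 of the 10 had an unadjusted p under 0.05 beside 11.7% of all genes. The median of the 10 was -0.73 beside 0.00 over all genes. Groups did not overlap for 0 of the 10, against 6.59% of all genes. DESeq2 called *Pabpc1l* and *Eif4e1b*, both at 0 or under the floor *in vivo* and above it in library 2 alone, and limma-voom and limma on log2 TPM called 0.

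In oocytes from primary follicles, *Ybx2* stood lower in all 3 *in vitro* libraries than in any *in vivo* library. Its mean was 5089 ± 5533 CPM *in vivo* and 375 ± 89.7 CPM *in vitro* (SD, n = 3), a log2 fold change of -3.76 ± 1.29 (SE; adjusted p = 0.44, edgeR). It was the 1 gene of the 10 without overlap, in a comparison where 9.99% of all genes did not overlap. The value was -2.37 without *in vivo* library 1, the highest of its group, -4.25 without library 2, which held the stroma markers, and -4.05 without library 3. Markers of other cells differed between the same groups. Of the blood markers, *Hbb-bs* was at 0, 1178 and 1157 TPM and *Hba-a1* at 7503, 1189 and 0 TPM *in vivo*, and they were at 0 in all 3 libraries and at 174, 0 and 0.306 TPM *in vitro*, with 2 to 4 of 7 blood and endothelium markers above the floor *in vivo* and 1 to 3 *in vitro*. The 12 granulosa markers summed to 551, 568 and 357 TPM *in vivo* and to 1135, 670 and 2434 TPM *in vitro*, with 3 to 9 and 7 to 11 of them above the floor. The 12 oocyte markers summed to 777, 587.5 and 1508 TPM *in vivo* and to 873, 500 and 527 TPM *in vitro*. The part of other cells or of oocyte content in the result was not tested. *Cpeb1* was at 1412 ± 1062 and 314 ± 81.7 CPM (SD, n = 3; log2 fold change -2.17 ± 1.53 (SE), adjusted p = 0.664, edgeR), and the primary *in vivo* library with the low value was library 2. Without it the value was -2.66, and without library 1 it was -1.57.

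*Zar1*, *Eif4e1b* and *Pabpc1l*, which had the largest values at the primordial stage, were at 0.09 ± 3.02, -0.59 ± 2.91 and -1.05 ± 3.10 (SE) here. All 3 primary *in vitro* libraries of *Zar1* lay within the *in vivo* range. edgeR called 0 of the 10 genes and 0% of all genes, with 1 of the 10 and 9.66% of all genes at an unadjusted p under 0.05, and DESeq2 and limma also called 0 of the 10. The median of the 10 was -0.25 beside 0.44 over all genes. Over both stages together, *Ybx2* had a difference of -3.00 ± 0.88 (SE; adjusted p = 0.188, edgeR), the smallest p of the 10, and leaving out single libraries gave values from -3.61 to -2.18. DESeq2 called it there (-3.50, adjusted p = 0.029) together with *Pabpc1l*, and edgeR called 0% of all genes, with 11.6% at an unadjusted p under 0.05, and 0 of the 10, with 2. The median of all genes was 0.44 for culture at the primary stage and moved by -0.27 with DESeq2's size factors and by 0.28 with library size alone. The sign for *Zar1* and *Cnot6l* turned with the former (-0.27 and -0.29).

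In MII oocytes, the spread between libraries was smaller than in LCM oocytes (biological coefficient of variation 0.726 against 2.02), and none of the 10 genes passed the test of *in vitro* against *in vivo*. *Btg4*, the highest of them in TPM, was at nearly the same mean in both groups. *Btg4* averaged 6389 ± 3425 CPM *in vivo* and 6522 ± 587 CPM *in vitro* (SD, n = 3), a log2 fold change of 0.03 ± 0.41 (SE; adjusted p = 0.991, edgeR). *Cnot7* averaged 792 ± 772 and 1544 ± 154 CPM (0.96 ± 0.55 (SE), adjusted p = 0.515), and *Cnot6l* 240 ± 57.3 and 306 ± 66.1 CPM (0.35 ± 0.33 (SE), adjusted p = 0.761). On the storage side, *Lsm14b* was at 392 ± 225 *in vivo* and 203 ± 78.4 CPM *in vitro* (-0.95 ± 0.47 (SE), adjusted p = 0.504) and *Ybx2* at 18.2 ± 13.8 and 7.49 ± 0.351 CPM (-1.28 ± 0.65 (SE), adjusted p = 0.505). The values of *Zar1*, *Cpeb1*, *Pabpc1l*, *Eif4e1b* and *Zfp36l2* were -0.31 ± 0.63, 0.44 ± 0.32, 0.70 ± 0.66, -0.65 ± 0.40 and 0.40 ± 1.59 (SE), with adjusted p-values from 0.561 to 0.963 in edgeR.

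In edgeR's quasi-likelihood test, 0 of the 10 genes were called, also 0 at an unadjusted p under 0.05, while 0.35% of 17144 genes were called and 10.2% had an unadjusted p under 0.05. The median of the 10 was 0.19 beside 0.04 over all genes. The MII libraries of the 2 groups overlapped for all 10 genes, whereas 16.2% of all genes did not overlap. DESeq2 and limma on log2 TPM called 0 of the 10, and limma-voom called *Cnot7* (1.66, adjusted p = 0.0208).

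Several of these values moved without MII *in vivo* library 1. It lay next to the *in vitro* libraries for *Cnot7* (678 TPM, with *in vitro* libraries from 603.5 to 743 TPM) and held the lowest *in vivo* level of *Lsm14b*, *Ybx2* and *Eif4e1b* and the highest of *Zar1* and *Btg4*. Without it, *Cnot7* was called higher *in vitro* (2.14, adjusted p = 0.00933, edgeR), and *Lsm14b* was at -1.35 (adjusted p = 0.0508), *Ybx2* at -1.75 (adjusted p = 0.0887) and *Eif4e1b* at -0.97 (adjusted p = 0.132). *Zar1* turned from -0.31 to 0.32, *Zfp36l2* from 0.40 to -0.11, and *Btg4* moved from 0.03 to 0.55. The number of genes called over all genes was 378 without the library and 60 with it. Its mean Spearman correlation with the rest of its group was 0.878, beside 0.876 and 0.883 for *in vivo* libraries 2 and 3. Other libraries also moved values. *Zar1* was at 0.16 without *in vitro* library 2. Without *in vivo* library 2, *Btg4* was at -0.24 and *Ybx2* at -0.61. Oocyte markers summed to 15334 to 20923 TPM in the 3 *in vivo* libraries and to 10360 to 15681 TPM in the *in vitro* libraries, and the part of any one library's quality in these values was not tested.

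**Figure D5:**
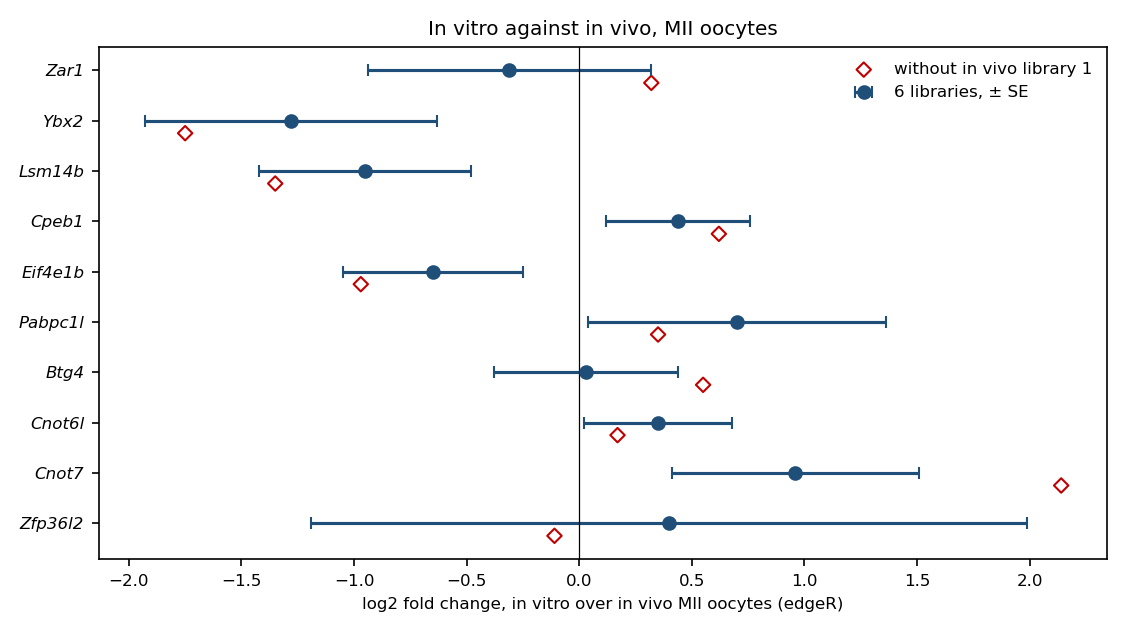
log2 fold changes ± SE of the 10 genes, *in vitro* against *in vivo* MII oocytes, with diamonds for the fit without MII *in vivo* library 1. *Cnot7* moves from 0.96 to 2.14, and *Zar1* and *Zfp36l2* change sign.

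Beyond the 10 genes, 106 other genes of mRNA storage, polyadenylation, deadenylation and decay were examined. In the LCM comparisons, none of them was called by edgeR, with 3 to 10 of the 106 at an unadjusted p under 0.05 beside 9.66% to 12.4% of all genes. DESeq2 called 2 to 7 of the 106 in each of these comparisons, where it called 236 to 812 of all genes, limma-voom 0 to 3, where it called 31 to 297, and limma on log2 TPM 0 of both. *Cstf2*, a subunit of the cleavage stimulation factor, was at 0.0792, 2.19 and 102 TPM in primordial *in vivo* and at 0, 0.0640 and 0.0338 TPM in primordial *in vitro* libraries (-10.23 ± 3.72 (SE), adjusted p = 0.359, edgeR). *Cpsf4*, a subunit of the cleavage and polyadenylation factor, was at 303, 31.5 and 0 TPM in the same *in vivo* libraries and at 0, 0.0653 and 0.259 TPM *in vitro*. Both genes had 1 *in vivo* library near the *in vitro* level. *Elavl1*, which binds AU-rich elements, was at 36.45, 26.7 and 89.1 TPM *in vivo* and at 0.0204, 0.0793 and 0.854 TPM *in vitro* (-7.44 ± 3.21 (SE), adjusted p = 0.359, edgeR). Its groups did not overlap, as for 6.59% of all genes. Without primordial *in vivo* library 3, *Cstf2* was at -4.75. DESeq2 called all 3.

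At the primary stage, *Cpsf4* was at 0, 0.0381 and 0 TPM *in vivo* and at 9.05, 0.515 and 75.2 TPM *in vitro* (10.30 ± 4.29 (SE), adjusted p = 0.44, edgeR), and its interaction of stage and growth was 20.14 ± 6.02 (SE; adjusted p = 0.159, edgeR), beside 10.54 ± 4.25 for *Cstf2* (5.06 without primordial *in vivo* library 3, 19.96 without primary *in vivo* library 3) and -10.90 ± 4.43 (SE) for *Eif4e3*. With 0, 1 and 0 counts in primary *in vivo* libraries, the size of the *Cpsf4* fold is not bounded by the fit. Over the alternatives, *Cpsf4* was at 3.38 to 10.70 for culture at this stage and at 7.66 to 20.57 for the interaction. *Msi1*, a translational regulator, was at 0, 0.189 and 0 TPM *in vivo* and at 105, 26.1 and 19.8 TPM *in vitro* (9.29 ± 4.38 (SE), adjusted p = 0.468), and *Btg3*, a relative of *Btg4*, at 0.1, 0 and 0 TPM *in vivo* and at 44.6, 52.3 and 0.692 TPM *in vitro* (9.09 ± 4.43 (SE), adjusted p = 0.49). All 3 genes had every *in vitro* library above every *in vivo* library, in a comparison where 9.99% of all genes did not overlap. DESeq2 and limma-voom called *Cpsf4* and *Msi1*. *Btg3* had 1, 0 and 0 counts *in vivo*, and its value was 3.96 to 9.58 over the alternatives. Between stages *in vivo*, *Nudt21* (cleavage factor I) was at 0, 0.106 and 0 TPM in primordial and at 21.8, 26.4 and 114 TPM in primary libraries (10.59 ± 4.39 (SE), adjusted p = 0.38), also without overlap, while *Cpsf4* had a value of -12.52 ± 4.64 (SE). *Eif4e3*, a cap-binding relative of eIF4E, was at 0.231, 0.113 and 0 TPM in primordial and at 548, 0.218 and 382.5 TPM in primary *in vivo* libraries (11.61 ± 4.04 (SE), adjusted p = 0.38), with 1 primary library at the primordial level. Between stages *in vitro*, *Cstf2*, *Btg3* and *Pde12*, a mitochondrial poly(A) nuclease, had values of 10.27 ± 3.73, 11.24 ± 4.65 and 10.55 ± 4.45 (SE; each with an adjusted p of 0.384, edgeR). *Btg3*, with 0 counts in all 3 primordial *in vitro* libraries, was at 4.00 to 11.39 over the alternatives. *Pde12* rested on primary *in vitro* library 1, with 739, 3 and 3 counts in the primary and 0 in all 3 primordial *in vitro* libraries, and was at 4.39 without it and at 1.34 on log2(TPM + 1). Pooled over both stages, *Dcp1b*, *Msi1* and *Cstf2* led for culture (-7.96 ± 2.79, 7.69 ± 2.89 and -4.96 ± 2.09 (SE)), and pooled over both groups *Patl2*, *Nudt21* and *Eif4e3* led for stage (8.82 ± 2.79, 8.73 ± 2.90 and 6.16 ± 2.29 (SE)), with adjusted p-values from 0.16 to 0.315 in edgeR, which called none of them. Without primary *in vivo* library 2, *Dcp1b* was at -3.11, and *Cstf2* was at -0.25 without primary *in vivo* library 3 and at -2.22 without primordial *in vivo* library 3.

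In MII oocytes, 105 of the 106 genes could be tested, 56 with a positive and 49 with a negative value, and their median was 0.08 beside 0.04 over all genes. There, 2 were called, again beside 0.35% of all genes. *Ddx4*, the germ-cell RNA helicase of ribonucleoprotein granules, rose *in vitro*, from 34.8, 13.35 and 23.9 TPM *in vivo* to 217, 368 and 271 TPM (3.55 ± 0.43 (SE), adjusted p = 0.00206, edgeR). *Upf1*, the helicase of nonsense-mediated decay, fell from 133, 247 and 221 TPM *in vivo* to 47.9, 44.6 and 44.96 TPM *in vitro* (-2.02 ± 0.34 (SE), adjusted p = 0.0207, edgeR). In both genes the groups did not overlap, as for 16.2% of all genes. DESeq2 and limma-voom called these and *Parn*, a poly(A)-specific ribonuclease. *Ddx4* was called in every alternative, and *Upf1* was lost in limma on log2 TPM (adjusted p = 0.0549 and 0.058) and, with an adjusted p from 0.0893 to 0.226, without any 1 of MII *in vivo* library 3 and the 3 *in vitro* libraries.

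By group, the 9 CCR4-NOT subunits of this list had a median of -0.03 in MII oocytes and none was called, the 18 mRNP storage genes a median of -0.06 with *Ddx4* called, and the 10 genes of decapping and exonuclease decay a median of -0.05 with *Upf1* called. The 7 AU-rich element binding genes had a median of 0.73, with 6 of 7 positive and 0 called. The 20 genes of CPE binding and cytoplasmic polyadenylation had a median of 0.09, with 10 positive, 10 negative and 0 called.

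The genes whose pattern was most like that of a member were found by the root mean square difference of centred log2 CPM, a distance on the log2 scale that is 0 for identical patterns. Over the 12 LCM libraries, 1869 genes were above the floor throughout. *Cnot7* lay nearest to *Pabpc1* (0.602), which encodes the general poly(A)-binding protein, and then to *Rpl32* (0.901), and *Cpeb1* nearest to *Ecpas* (0.606) and *Usp9x* (0.639). *Lsm14b* lay nearest to *Oas1c* (0.661) and *Mybl2* (0.675), *Ybx2* to *Fzr1* (0.916) and *Eif3g* (1.05), *Zfp36l2* to *Cct4* (1.16) and *Kif16b* (1.22), and *Cnot6l* to *Glyr1* (1.19) and *Klhdc2* (1.24). The median distance of these 6 genes to all others lay between 2.27 and 2.91. *Zar1*, *Btg4*, *Pabpc1l* and *Eif4e1b* were not above the floor in all 12 libraries and were left out.

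Over the 6 MII libraries, with 10397 genes above the floor throughout, *Btg4* lay nearest to the oocyte homeobox gene *Obox1* (0.0239), *Cnot7* to *Gm10459* (0.0586), *Cpeb1* to *Ctps* (0.062), *Pabpc1l* to *Mrpl4* (0.0726) and *Eif4e1b* to *Lpin2* (0.0838). *Cnot6l* lay nearest to *Cdc6* (0.0988), *Lsm14b* to *Ruvbl2* (0.101), *Ybx2* to *Atp5h* (0.122) and *Zar1* to *Ppp4c* (0.256). These distances rest on 6 libraries, in which MII *in vivo* libraries 2 and 3 stood apart from the other 4 for *Cnot7* and *Lsm14b*.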

How the data were processed

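RNA-seq of the 18 libraries was used as deposited. The authors trimmed reads with Trim Galore 0.4.1, mapped them to mm10 with TopHat2 and deposited gene counts from featureCounts, without normalization. The authors also deposited TPM values, scaled to a total of 1000000 per library over 28252 genes. An Ensembl and a RefSeq annotation are both named in the sources, and strand and multimapping settings are not given in the sources used here. Levels are printed in TPM and tests used counts.

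Counts were tested with edgeR 4.0.16 (R 4.3.3; TMM, glmQLFit with robust estimation, glmQLFTest) over genes that reached 10 counts summed over the libraries, in 1 model of the 12 LCM libraries and 1 of the 6 MII libraries. A call needed a Benjamini-Hochberg adjusted p under 0.05 over all genes and at least a 2-fold change. Positive values are higher *in vitro* or in primary oocytes. Means ± SD are TMM-normalized CPM. Folds against a group with no library above 3 counts set the mean of the other group against that floor, taken per library. The floor covers counting error only, and a mean can rest on 1 library, so such a fold is no minimum for each library. Groups came from the sample labels. Coordinates and transcripts were taken from GENCODE M21, which matched 53620 of 53715 identifiers.

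Members and lists were chosen with earlier results of these data known. Named besides the 10 genes were the genes of the 106-gene list that were called or, where none was, the 3 with the smallest p, and the genes nearest to a member (2 over LCM libraries, 1 over MII libraries). *Gdf9*, *Zp3*, *Sohlh1*, *Figla*, *Cyp19a1*, *Hba-a1* and *Hbb-bs*, from the marker lists, and *Parn* were named after their values were seen. The scripts were tested on simulated data with a smaller spread between libraries than in these data (biological coefficient of variation 2.02 for LCM and 0.726 for MII). That test does not tell how many true changes would be called at the spread of these data. Alternatives were DESeq2 1.42.0, limma-voom and limma 3.58.1 on log2(TPM + 1) and log2(TPM + 0.1), other scaling and filters, no fold threshold, only the groups compared, a replicate block and leaving out each library.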

Additional observations from a re-analysis of the deposited data

How the results depend on the processing

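Over 76 results, 1261 values under the alternatives were compared with those reported, of which 1161 kept direction and side of the threshold, 34 passed it, 6 lost it and 60, in 19 results, changed sign, 0 of these with an adjusted p under 0.05. Of the 10 genes, DESeq2 called 2 for culture at the primordial stage, 2 for stage *in vivo*, 2 for culture pooled, 1 for stage pooled and 1 for the interaction, against 0 in edgeR. limma-voom called 1 for MII and 1 for stage pooled, and leaving out a library gave 0 to 1 for MII, the 1 without MII *in vivo* library 1. Over all genes, calls were 5 (0 to 812 over the alternatives) for culture at the primordial stage, 0 (0 to 297) at the primary stage and 60 (43 to 507) in MII. They were 8 (0 to 563) for stage *in vivo*, 0 (0 to 431) for stage *in vitro*, 0 (0 to 574) for culture pooled, 0 (0 to 644) for stage pooled and 16 (0 to 547) for the interaction, and the highest came from DESeq2 or limma-voom. With a library left out they reached 378 in MII (11 at the lowest) and 20 in LCM comparisons. The causes of these differences were not tested.

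Signs changed as follows on the log2 scale. For culture at the primordial stage, *Cnot6l* was at 0.43 (voom), 0.67 and 0.92 (log2 TPM). At the primary stage, *Zar1* was at -0.27 (DESeq2 and its size factors), -0.03 (filterByExpr) and -0.03 (replicate block), *Cnot6l* at -0.29 (DESeq2 and its size factors), *Pabpc1l* at 0.96 (voom), 0.46 and 1.11 (log2 TPM) and 0.55 (replicate block), and *Eif4e1b* at 2.38, 2.01, 3.17 and 1.67 in the same order. For MII, *Zfp36l2* was at -0.47 (voom). For stage *in vivo*, *Cnot6l* was at -0.16 (library size). For stage *in vitro*, *Zar1* was at 3.95 (voom), 2.13 and 3.32 (log2 TPM) and 0.07 (library size), *Ybx2* at 0.10, 0.40, 0.40 and 0.03 in the same order, and *Lsm14b* at 0.08 (library size). *Cstf2* was at 0.91 for culture pooled under the replicate block.

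With each library left out in turn, values that changed sign ranged as follows. Culture at the primordial stage gave -1.69 to 0.02 for *Cnot6l*, 0.00 to 6.70 for *Pabpc1l* and -3.16 to 2.03 for *Zfp36l2*. At the primary stage it gave -0.40 to 2.24 for *Zar1*, -0.34 to 1.29 for *Cnot6l*, -1.67 to 2.96 for *Pabpc1l* and -1.18 to 5.76 for *Eif4e1b*. In MII it gave -1.52 to 0.32 for *Zar1*, -0.24 to 0.55 for *Btg4* and -0.15 to 0.92 for *Zfp36l2*. Stage *in vivo* gave -0.21 to 2.82 for *Ybx2*, -0.95 to 0.69 for *Cnot6l* and -3.28 to 1.07 for *Zfp36l2*. Stage *in vitro* gave -0.92 to 4.10 for *Zar1*, -0.75 to 0.88 for *Ybx2*, -0.21 to 2.13 for *Zfp36l2*, -0.82 to 0.19 for *Lsm14b* and -0.41 to 10.35 for *Eif4e1b*.

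The replicate numbers share only a number: correlations of the deviations of same-numbered libraries lay between -0.066 and 0.090, and the block called 0 of the 10 genes in each comparison. The scaling moved the median of all genes by over 0.1 for culture at the primary stage (-0.27 and 0.28), stage *in vitro* (-0.23 and 0.37), culture pooled (-0.13 and 0.12), stage pooled (0.16) and the interaction (-0.3 and 0.37). Of the 12 LCM libraries, *Zar1* was above the floor in 9, *Btg4* in 8 and *Pabpc1l* and *Eif4e1b* in 6 each. *Zfp36l2* was not above the floor in 2 of 6 MII libraries. Differences among levels under the floor were not detectable at this depth.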
